A study of Mus musculus with 24 samples.

Results

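The ventrobasal complex (VB) of the mouse thalamus was compared at P0 between pups whose eyes had been removed before birth and pups with intact eyes. The comparison takes the 6 VB arrays of that age, chosen by their labels, out of the 24 arrays of the series: 3 from embBE mice (arrays 35_3, 39_3 and 39_4) and 3 from controls (35_1, 35_2 and 39_5). All animals were wild type on a C57BL/6 background. In embBE (embryonic bilateral enucleation) mice both eyes were cauterized in utero at E14.5, and control mice were not enucleated. Per the series' design text a sample pools nucleus tissue of pups that share litter and condition. The nucleus was cut by hand from vibratome slices, and its RNA passed through 2 rounds of amplification before each sample went onto 1 Affymetrix mouse array. The meaning of the label numbers is not stated, and p-values therefore measure the spread between arrays, which may be technical. The deposited values are log2 signals, and a difference of 1 is a 2-fold change of the signal. Of the probe sets that name a gene, the brightest was kept for each of 18194 genes.

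The VB relays touch from the face and body to the somatosensory cortex. Its neurons are glutamatergic, they receive trigeminal and lemniscal axons, and around birth their axons are entering the cortex, where those from whisker territories will form the barrels. The VB itself receives no retinal input, so the comparison asks what loss of the eyes does to a nucleus of another sense. Inhibitory neurons are few in the rodent VB and surround it in the prethalamic reticular nucleus and zona incerta. In a bulk sample fewer cells of a type and less RNA per cell cannot be told apart.

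Genes of glutamatergic thalamic neurons were bright on all 6 arrays. Slc17a6, the vesicular glutamate transporter of relay neurons, lay between 11.84 and 12.89, and the thalamic transcription factor gene Tcf7l2 between 12.04 and 12.80. Neurod6 and Tbr1, markers of cortical projection neurons, did not exceed 2.67 and 2.89. Ttr, the main product of the choroid plexus, did not exceed 7.06, and the habenula gene Pou4f1 did not exceed 6.63. The relay neuron genes Gbx2 and Rora lay between 7.05 and 8.40 and between 10.93 and 11.93.

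Control arrays 35_1 and 39_5 stood apart from the others. Control 35_1 had the narrowest spread of signals (SD 2.22 over all probe sets, against 2.33 to 2.38 on the other 5) and the widest gap between the actin probe sets of the 3′ and 5′ ends (4.29 log2 units). The next widest gap was on control 39_5 (2.98), and the other 4 arrays had gaps of 2.20 to 2.55. Control 39_5 had a further feature, a high signal of some genes of prethalamic GABAergic neurons. Gad1, which encodes the GABA-synthesizing enzyme, had a log2 signal of 9.97 on 39_5 and of 4.20 to 5.21 on the other 5 arrays. Its second, dimmer probe set differed by −0.05 between the groups. Slc32a1, another gene of GABAergic neurons, showed no such excess on 39_5. Of the 25 measured genes of a list of hypothalamic and prethalamic markers, 14 were highest on 39_5 and 10 on control 35_1. The 2 groups also differed in sex-linked genes. Eif2s3y, on the Y chromosome, gave 8.88, 9.02 and 8.80 on controls 35_1, 35_2 and 39_5, and 3.75, 8.88 and 3.50 on embBE 35_3, 39_3 and 39_4. Xist, the RNA of the inactive X chromosome, gave 7.31, 7.01 and 6.92 in the same controls and 10.86, 6.97 and 11.26 in the same embBE arrays. The embBE arrays 35_3 and 39_4 therefore carried a female pattern of these genes and the other 4 arrays a male pattern. No array was intermediate, as a pool of pups of both sexes would be, so what a replicate holds (a pool of pups of the same sex, or fewer pups than the design text states) is not settled here. The part of these differences in the results below was not tested. Results are given with and without control 35_1, and for many genes also without control 39_5. Fits without an embBE array are given for a few genes only, so how far the sex-linked difference enters the results is mostly not shown.

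Genes were called by the study's rule, which asks for a 1.5-fold change or more and an unadjusted p under 0.05, here from limma over the 12 VB arrays. By it 101 genes were called higher in the embBE VB (0.555% of those tested) and 31 lower (0.17%). No gene had a Benjamini-Hochberg adjusted p under 0.05, the lowest being 0.679. Without control 35_1 the threshold was met by 13 genes that were higher (0.0715%) and 19 that were lower (0.104%). All 132 called genes kept their sign without 35_1, and 48 of them kept a p under 0.05, 29 higher and 19 lower. When the arrays were quantile normalized again or adjusted by cyclic loess, the split between higher and lower calls was 86 to 57 (60.1% higher) and 80 to 50 (61.5% higher), against 76.5% higher here. Leaving out control 35_2 instead gave 850 higher and 208 lower calls.

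The control arrays did not contribute evenly to these calls. In 93 of the 101 genes called higher (92.1%), 35_2 was the highest of the 3 controls, whereas over all genes it was the highest in 30.8%. In 91 of them control 35_1 was the lowest (35.04% over all genes). In 26 of the 31 genes called lower (83.9%), 35_2 was the lowest control (41.9% over all genes). Control 35_2 thus lay nearest to the embBE arrays in most called genes. It lay within the range of the embBE arrays in 39 of the 101 and 8 of the 31. When both 35_1 and 39_5 were left out, which sets the 3 embBE arrays against 35_2 alone and assumes that it varies like the other groups, 15 genes were called higher and 7 lower.

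The threshold was met both with all 6 arrays and without control 35_1 by 20 genes (0.11% of those tested), 12 higher and 8 lower. The 12 include Xist, which followed the sex pattern of the arrays. In 15 of the 20 every embBE array lay beyond every control array (over all genes, 4.47% separated upward and 7.55% downward). As the 20 were chosen on these same arrays, this separation is partly fixed by the choice. In all, 6 genes (0.033%) were called whichever of the 6 arrays was left out: Fat3, Kcnab1, Zfp871, Cpne4 and Eif2s3x, all higher, and Crct1, lower.

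Fat3, which encodes a giant atypical cadherin that shapes neuronal processes, was higher on every embBE array than on every control array. Its log2 signal was 11.23, 11.14 and 10.83 on controls 35_1, 35_2 and 39_5 and 11.67, 11.68 and 11.97 on embBE 35_3, 39_3 and 39_4. The difference was 0.71 (SE 0.17), 0.79 without 35_1, 0.59 without 39_5 and 0.63 against 35_2 alone, where Fat3 was the only member of the 20 still called. Tenm1, an X-linked teneurin gene whose product binds latrophilins across synapses, gave 11.47, 11.46 and 11.33 in the same controls and 11.94, 11.73 and 12.44 in the same embBE arrays. Its difference of 0.61 (SE 0.18) was 0.63 without 35_1 and 0.57, just under the fold threshold, without 39_5. Leaving out embBE 39_4, an array with the female pattern, gave 0.41, which was not called. Leaving out embBE 35_3, the other array with that pattern, gave 0.66, which was still called. Leaving out embBE 39_3, the embBE array with the male pattern, gave 0.76. The second probe set of Tenm1 gave 0.38.

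Clustered protocadherins give neighbouring neurons different surface identities. Pcdhb17 had log2 signals of 7.10, 7.97 and 7.03 in the controls and 8.11, 8.11 and 8.13 in the embBE arrays. Control 35_2 was close to the embBE arrays and the other controls were about 1 unit below. The difference of 0.75 (SE 0.24) fell to 0.15 when 35_2 was the only control, where it was not called. Pcdhb22 showed the same order, with 6.77, 7.42 and 6.55 against 7.42, 7.74 and 7.66, a difference of 0.69 (SE 0.21). Pcdh7, outside the clusters, was called higher with all arrays (0.89, SE 0.32) and not without 35_1 (0.71), where its p exceeded 0.05. Its other probe sets gave −0.06 and 0.08, and the mean of the 3 was 0.30 and not called.

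Of the 35 measured protocadherin genes 22 lay above 0, and 25 did without 35_1. Their median log2 fold change was 0.12, 0.10 without 35_1 and 0.09 without 39_5, where the median over all genes was −0.03 and −0.01. In 8 of the 35 every embBE array was above every control array, against 4.47% of all genes, and in 1, Pcdh12 (named after its values were seen), every embBE array was below, against 7.55% of all genes. Of the 22 measured Pcdhb genes 15 lay above 0, and 6 of these separated without overlap. Besides Pcdhb17 and Pcdhb22 these were Pcdhb21 (0.46), Pcdhb12 (0.49), Pcdhb16 (0.36) and Pcdhb20 (0.19), named after their values were seen and under the fold threshold. The brightest protocadherins, Pcdh9 and Pcdh19, had differences of 0.27 and 0.25 and were not called. Against the direction of the class, Pcdh8 (named after its values were seen) had a difference of −1.10 (SE 0.51) and was not called, with its highest signal, 10.83, on control 39_5.

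Among the decreases, Gpc5, a heparan sulphate proteoglycan of the glypican family, gave 8.38, 8.49 and 9.02 in controls 35_1, 35_2 and 39_5 and 7.95, 7.89 and 8.11 in the embBE arrays. No embBE array reached the lowest control. The difference was −0.65 (SE 0.18), −0.77 without 35_1 and −0.45 without 39_5. Bcan, which encodes brevican of the perineuronal matrix, gave 11.91, 11.28 and 11.67 against 10.94, 10.72 and 11.15, again without overlap. It fell by 0.69 (SE 0.15), and without 35_1 it kept a p under 0.05 but not the fold (−0.54). The adhesion gene Alcam behaved likewise (−0.76, and −0.54 without 35_1). Islr2 (−0.63, SE 0.27), a surface protein of growing axons, was called in both fits and rested on 39_5, where it had 7.21 against 5.62 to 6.04 on the other 5 arrays, and its difference was −0.19 without 39_5. Cntnap2, a neurexin-like adhesion gene, was called higher without 35_1 (0.60) but not with it (0.42). Control 35_1 had the highest control signal (11.68, against 11.30 and 11.02), and the embBE arrays gave 11.50, 11.81 and 11.96.

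Among the adhesion and matrix classes, 2 of 37 measured proteoglycan genes and partners were called lower, Bcan and Gpc5 (0.17% over all genes), and the brightest after Bcan, Agrn, had a difference of 0.34. Of 41 immunoglobulin adhesion genes 3 were called lower, against the same 0.17%: Alcam, Islr2 and Kirrel3 (−0.60). Under the mean of their probe sets Alcam (−0.48) and Kirrel3 (−0.39) were not called, and Islr2 was not called without 39_5. Among 57 collagen and laminin genes Col9a1 was called higher (0.69, SE 0.27), but not without 35_1 (0.57), and its second probe set gave −0.19. No gene of 32 classical and type II cadherins and catenins, a list without Fat3, or of 24 integrins was called. The medians of proteoglycans (−0.09), collagens and laminins (−0.08) and integrins (−0.05) lay at 0.0086, −0.0022 and 0.04 without 35_1.

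**Figure D1:**
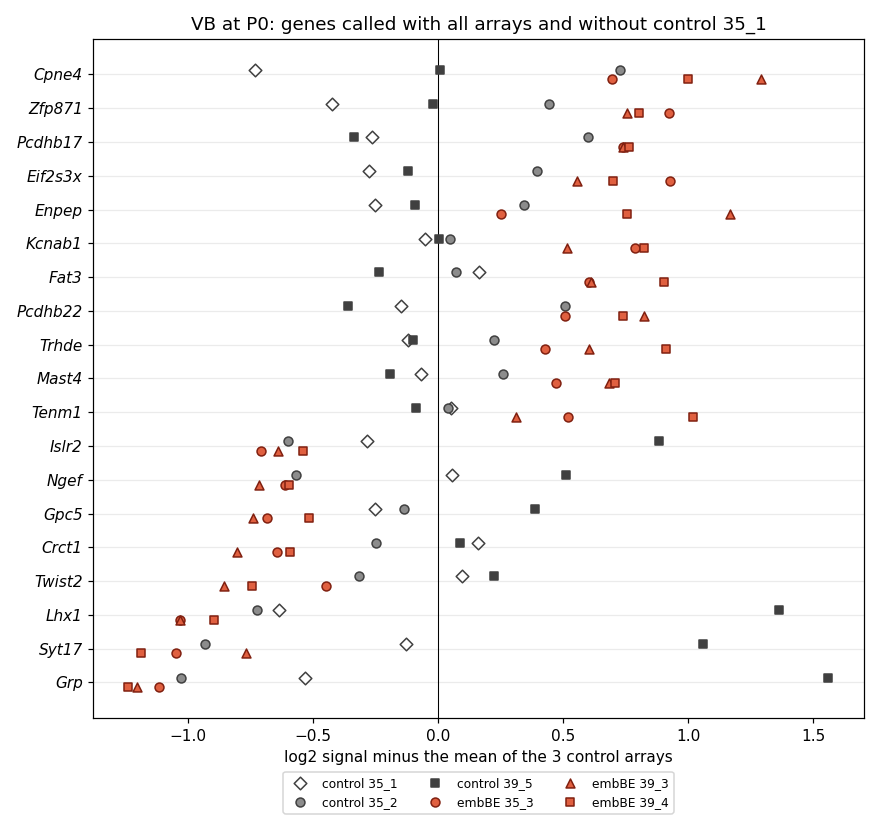
Log2 signal on each VB array at P0 minus the mean of the 3 control arrays (horizontal axis) for the genes called with all 6 arrays and without control 35_1, Xist left out. Grey and white symbols are control arrays and red symbols embBE arrays. In Fat3, Kcnab1 and Tenm1 the 3 controls lie together below the embBE arrays, whereas in Grp, Lhx1, Syt17 and Islr2 control 39_5 lies far above all other arrays.

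Kcnab1, which encodes an auxiliary subunit of Kv1 potassium channels, had closely grouped controls, with 7.83, 7.93 and 7.89 on 35_1, 35_2 and 39_5 and 8.68, 8.40 and 8.71 on the embBE arrays. The difference was 0.71 (SE 0.25) and 0.68 without 35_1. Its second, dimmer probe set gave −0.05. Zfp871, a zinc-finger gene, gave 9.39, 10.26 and 9.80 against 10.74, 10.57 and 10.62 (0.83, SE 0.18), and its other probe sets gave 0.60 and 0.31. Cpne4, a calcium-dependent phospholipid-binding protein gene, gave 6.46, 7.92 and 7.20 against 7.89, 8.48 and 8.19. Control 35_2 overlapped the embBE arrays, and the difference of 0.997 (SE 0.29) was 0.63 without 35_1. Its second probe set gave 0.12, and the mean of both was 0.56 and not called. Crct1, an epidermal differentiation gene, fell by 0.68 (SE 0.14), from 7.11, 6.70 and 7.03 to 6.30, 6.14 and 6.36.

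Trhde and Enpep, which encode peptidases that cleave thyrotropin-releasing hormone and angiotensin peptides at the cell surface, were called higher in both fits (0.65, SE 0.19, and 0.72, SE 0.23). Enpep was dim, at 4.08 to 4.68 in controls. Trhde was at 0.52 and not called without embBE 39_4, and Enpep at 0.50 and not called without embBE 39_3. The kinase gene Mast4 was called higher (0.62, SE 0.16) on the brightest of its 8 probe sets. The other 7 gave −0.24 to 0.0027, and the mean of all 8 was −0.02. Mast4 was at 0.578, just under the fold threshold, without embBE 39_4. Lower in both fits were Twist2, a transcription factor gene (−0.68, SE 0.21), Ngef, which acts downstream of ephrin receptors (−0.64, SE 0.22, and −0.39 and not called without 39_5), and Syt17, an atypical synaptotagmin gene (−1.001, SE 0.37). Syt17 had 9.10 on 39_5 and 6.85 to 7.91 on the other 5 arrays, and it was −0.47 and not called without 39_5. It was also not called without embBE 39_4 (−0.91). In all, 12 of the 20 genes missed the threshold without control 39_5. Over the 9 genes of the 20 with more than 1 probe set, 11 of 18 other probe sets had the sign of the brightest and 5 met the threshold with it.

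Eif2s3x, an X-linked gene of translation initiation that escapes X inactivation, gave 9.53, 10.20 and 9.68 in controls and 10.73, 10.36 and 10.50 in the embBE arrays. It was called in each fit that left out an array (0.73, SE 0.24). The array with the lowest embBE signal, 39_3, was also the embBE array with the male pattern of Xist and Eif2s3y. Ddx3x and Kdm5c, X-linked genes that also escape inactivation (named after their values were seen), had differences of 0.54 (SE 0.13) and 0.38 (SE 0.15). Of the 101 genes called higher 7 (6.93%) lay on the X chromosome, where 3.42% of all genes lie. Without 35_1 it was 3 of 13 (23.1%), Xist, Eif2s3x and Tenm1. The 617 X-linked genes had a median of 0.02.

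Most decreases called without control 35_1 had their highest control signal on 39_5. Of the 19 genes called lower without 35_1, 18 had their highest signal of the remaining 5 arrays on 39_5. As a call of lower favours 35_2 or 39_5 as the highest array, this count is partly fixed by the choice. In 9 of the 19 control 35_2 did not exceed the highest embBE array, and 1, Crct1, was also called lower without 39_5. Lhx1, a LIM homeobox gene of the reticular nucleus and zona incerta, gave 5.51, 5.42 and 7.51 in the controls and 5.12, 5.12 and 5.25 in the embBE arrays. Its difference was −0.99 (SE 0.40), −1.30 without 35_1 and −0.30 without 39_5. Dlx1, a homeobox gene of GABAergic neurons, gave 6.81 on 39_5 and 4.34 to 4.53 elsewhere (−0.84, and −1.20 without 35_1). Isl1, a LIM homeobox gene, gave 7.83 on 39_5 and 4.96 to 5.66 elsewhere (−1.08, and −1.38 without 35_1). Gad1 had a difference of −1.76 with all arrays, −2.54 without 35_1 and 0.04 without 39_5. Its second, dimmer probe set gave −0.05 with all arrays. The inhibitory vesicle transporter gene Slc32a1 showed no such excess, with 6.66 on 39_5 and 6.44 to 6.72 on the others.

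Over the whole list of 25 hypothalamic and prethalamic markers, 2 lay above 0 with all arrays and 2 without 35_1, and the median was −0.15 in both cases, −0.08 without 39_5 and −0.27 without 35_2. The median of the list on each array, relative to the mean of the 6 arrays, was 0.10 on control 35_1, −0.16 on 35_2 and 0.23 on 39_5, and it lay between −0.10 and −0.08 on the embBE arrays. The median of thalamic relay neuron markers was lowest on 39_5. It was −0.27 there and between −0.01 and 0.12 on the other arrays, and their median log2 fold change of 0.17 (15 of 19 above 0) was 0.14 without 35_1 and 0.04 without 39_5.

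Neuropeptide precursors are cut into the small secreted messengers of neurons. Grp, the precursor of gastrin-releasing peptide, gave 6.39, 5.90 and 8.48 on controls 35_1, 35_2 and 39_5 and 5.81, 5.72 and 5.69 on the embBE arrays. Although the groups did not overlap, the difference of −1.19 (SE 0.53) became −0.40 without 39_5 and was not called. Sst (somatostatin) gave 6.28, 5.83 and 8.30 against 6.06, 5.97 and 5.90. Cartpt, the precursor of the CART peptides, gave 4.77, 4.54 and 7.48 against 4.59, 4.66 and 4.45. Both were called lower without 35_1 (−1.09 and −1.45), and without 39_5 their differences were −0.08 and −0.09. The brightest precursor genes of the VB, Cck and Chgb, had differences of 0.17 and 0.18. Of the 31 measured precursors 6 lay above 0 (9 without 35_1), with a median of −0.13 (−0.10 without 35_1 and −0.09 without 39_5), and the highest signal was on 35_1 in 13 genes and on 39_5 in 10. Of 35 neuropeptide receptor genes 0 were called, and the median was −0.08.

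A cAMP response element, TGACGTCA, is a known feature of several peptide promoters. The 250 bases before the start of each gene were searched for these 8 letters, which read the same on both strands. They occur in 5 of the 25 precursor genes with a promoter in the RefSeq table (GRCm38.p6). Counted by promoter, they occur in 18.5% of the 27 promoters of these genes and in 1.55% of all 32851 promoters of the table. Below are the 250 bases of the pair of precursors called lower without 35_1 that hold it, Sst and Cartpt, and of Scg2, a bright precursor chosen because it holds the element. The element is in capitals and the strand is that of the gene. Sst lies at chr16:23890845-23891094 (minus strand, element starting 48 bases before the start), Cartpt at chr13:99900684-99900933 (minus strand, 112 bases) and Scg2 at chr1:79440027-79440276 (minus strand, 68 bases).
Sst: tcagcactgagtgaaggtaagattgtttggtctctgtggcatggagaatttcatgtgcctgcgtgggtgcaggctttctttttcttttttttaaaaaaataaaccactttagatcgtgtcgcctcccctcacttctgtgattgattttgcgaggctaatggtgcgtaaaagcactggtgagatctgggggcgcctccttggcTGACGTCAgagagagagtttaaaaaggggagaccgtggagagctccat
Cartpt: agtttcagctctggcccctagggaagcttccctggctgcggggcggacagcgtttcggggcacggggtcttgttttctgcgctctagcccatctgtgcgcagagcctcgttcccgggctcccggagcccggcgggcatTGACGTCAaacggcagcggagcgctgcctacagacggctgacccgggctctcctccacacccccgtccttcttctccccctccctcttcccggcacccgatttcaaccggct
Scg2: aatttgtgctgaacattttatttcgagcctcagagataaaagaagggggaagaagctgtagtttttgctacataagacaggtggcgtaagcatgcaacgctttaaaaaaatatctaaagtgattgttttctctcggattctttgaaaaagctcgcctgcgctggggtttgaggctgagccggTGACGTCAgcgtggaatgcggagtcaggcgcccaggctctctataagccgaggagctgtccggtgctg

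Of the 5 genes with the element, Sst, Cartpt and Ucn (−0.15) lay below 0 and Scg2 (0.49) and Chgb (0.18) above. Scg2 gave 11.06, 12.20 and 11.68 in the controls and 12.22, 11.93 and 12.26 in the embBE arrays, and its difference was 0.20 without 35_1. The median of the 5 was −0.15 and that of the precursors without the element −0.12.

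**Figure D2:**
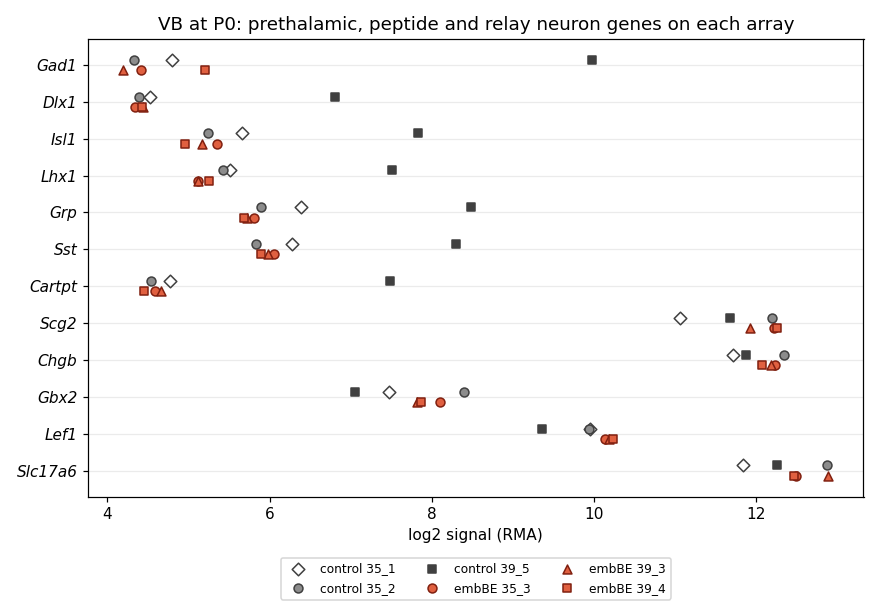
Log2 signal (horizontal axis) on each of the 6 VB arrays at P0 for prethalamic genes, neuropeptide precursors and relay neuron genes. Grey and white symbols are controls and red symbols embBE arrays. From Gad1 (9.97) to Cartpt (7.48) control 39_5 lies above all other arrays, and in the relay neuron genes Gbx2 and Lef1 it is the lowest array.

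Genes that move calcium out of the cytoplasm included several with small positive differences and no overlap between groups. Calcium waves of the prenatal thalamus are a subject of the study. Of 28 measured genes of calcium release, pumping and exchange 0 met the threshold, but in 5 every embBE array was above every control array (4.47% over all genes). All 5 are named here after a look at their values. Slc8a1, the plasma membrane sodium-calcium exchanger, gave 10.44, 10.40 and 10.31 in controls and 10.73, 10.73 and 10.82 in embBE arrays. Its difference of 0.38 (SE 0.10) was 0.41 without 35_1. Slc24a2, a potassium-dependent exchanger gene, had 0.44 (0.42 without 35_1). The plasma membrane calcium pump genes Atp2b1, Atp2b2 and Atp2b3 had 0.36, 0.24 and 0.21, and 0.30, 0.27 and 0.20 without 35_1. Slc8a2 and Jph4, also named after their values were seen, were below all controls on every embBE array (−0.26 and −0.27). The median of the class was 0.02 with all arrays and 0.03 without 35_1.

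EF-hand calcium-binding markers lay lower. Efhd2, whose product binds calcium and actin, gave 11.80, 11.36 and 11.63 in controls and 11.14, 10.80 and 10.94 in embBE arrays. No embBE array reached the lowest control, and the difference was −0.63 (SE 0.14), −0.53 without 35_1, where it kept a p under 0.05, and −0.62 without 39_5. Its second probe set gave −0.23, and the mean of both, −0.43, was not called. Of the 17 measured genes of this class 5 lay above 0 and 3 did without 35_1, and the median was −0.14, −0.13 without 35_1 and −0.08 without 39_5. It was the only class of the 72 whose median exceeded 0.1 in size with the same sign with and without 35_1. On the arrays the class lay at 0.11 on 35_1, −0.05 on 35_2 and 0.14 on 39_5, and between −0.13 and −0.01 on the embBE arrays.

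Gap junction genes showed no called change. Of 17 measured connexins and pannexins 0 were called and 0 separated without overlap. Gja1 (connexin 43) gave 11.85, 11.31 and 12.12 in controls and 11.24, 11.52 and 11.75 in embBE arrays, a difference of −0.25 (SE 0.19). Gjc1 (connexin 45) gave 10.83 to 11.43 in controls and 9.99, 10.83 and 10.69 in embBE arrays, a difference of −0.58 (SE 0.36) that was −0.32 without embBE 35_3. Gjd2, the neuronal connexin 36 gene, was chosen after its values were seen and had 0.30 (SE 0.21), and 0.03 without 35_1. Among channels outside the potassium family, the cation channel gene Trpm3 gave 7.41, 8.72 and 8.24 against 8.86, 9.19 and 9.12. Its difference was 0.93 (SE 0.29), and without 35_1 it stayed just under the fold threshold (0.58). Its second probe set, almost as bright, gave 0.0055, the other 4 gave −0.05 to 0.11, and the mean of the 6 was 0.18 and not called. Of 24 voltage-gated calcium channel subunits, 11 sodium channel subunits and 12 sodium-potassium ATPase subunits 0 were called.

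At the synapse, Nrxn3, a presynaptic neurexin gene, gave 9.90, 10.71 and 10.40 in controls and 10.97, 10.92 and 10.97 in embBE arrays (0.62, SE 0.19). Without 35_1 it was 0.40, under the fold threshold. Its other 4 probe sets gave −0.22 to 0.21, and the mean of the 5 was 0.13 and not called. With Tenm1, Nrxn3 was called higher among 64 measured synaptic organizer genes (0.555% over all genes). Of the 64, 11 separated upward without overlap (4.47% over all genes) and 6 downward (7.55%). Among the 11, named after their values were seen, were the latrophilin genes Adgrl3 (0.49), Adgrl2 (0.27) and Adgrl1 (0.28), whose products are partners of teneurins, and Slitrk6 (0.58, SE 0.14). The brightest organizers, Ntng1 and Tenm2, had 0.22 each. The class median was 0.02, and 0.04 without 35_1.

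Postsynaptic scaffold genes Dlgap2 (−0.62, SE 0.25) and Lin7b (−0.71, SE 0.25) were called lower among 24 measured (0.17% over all genes). They were −0.46 and −0.54 without 35_1 and not called. The mean of the 4 probe sets of Lin7b was −0.31. NMDA and metabotropic glutamate receptors had the lowest median of all 72 classes, −0.20 over 12 genes, and −0.08 without 35_1, with 0 called. AMPA, kainate and delta receptor genes had a median of −0.02 (23 genes). Acetylcholine receptor and handling genes had −0.11 (5 of 24 above 0) and −0.06 without 35_1. Serotonin genes had −0.05 over 20 genes, where the brightest, Htr1b and Slc6a4, which relay neurons express around birth, had 0.41 and 0.39 without passing the threshold.

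**Figure D3:**
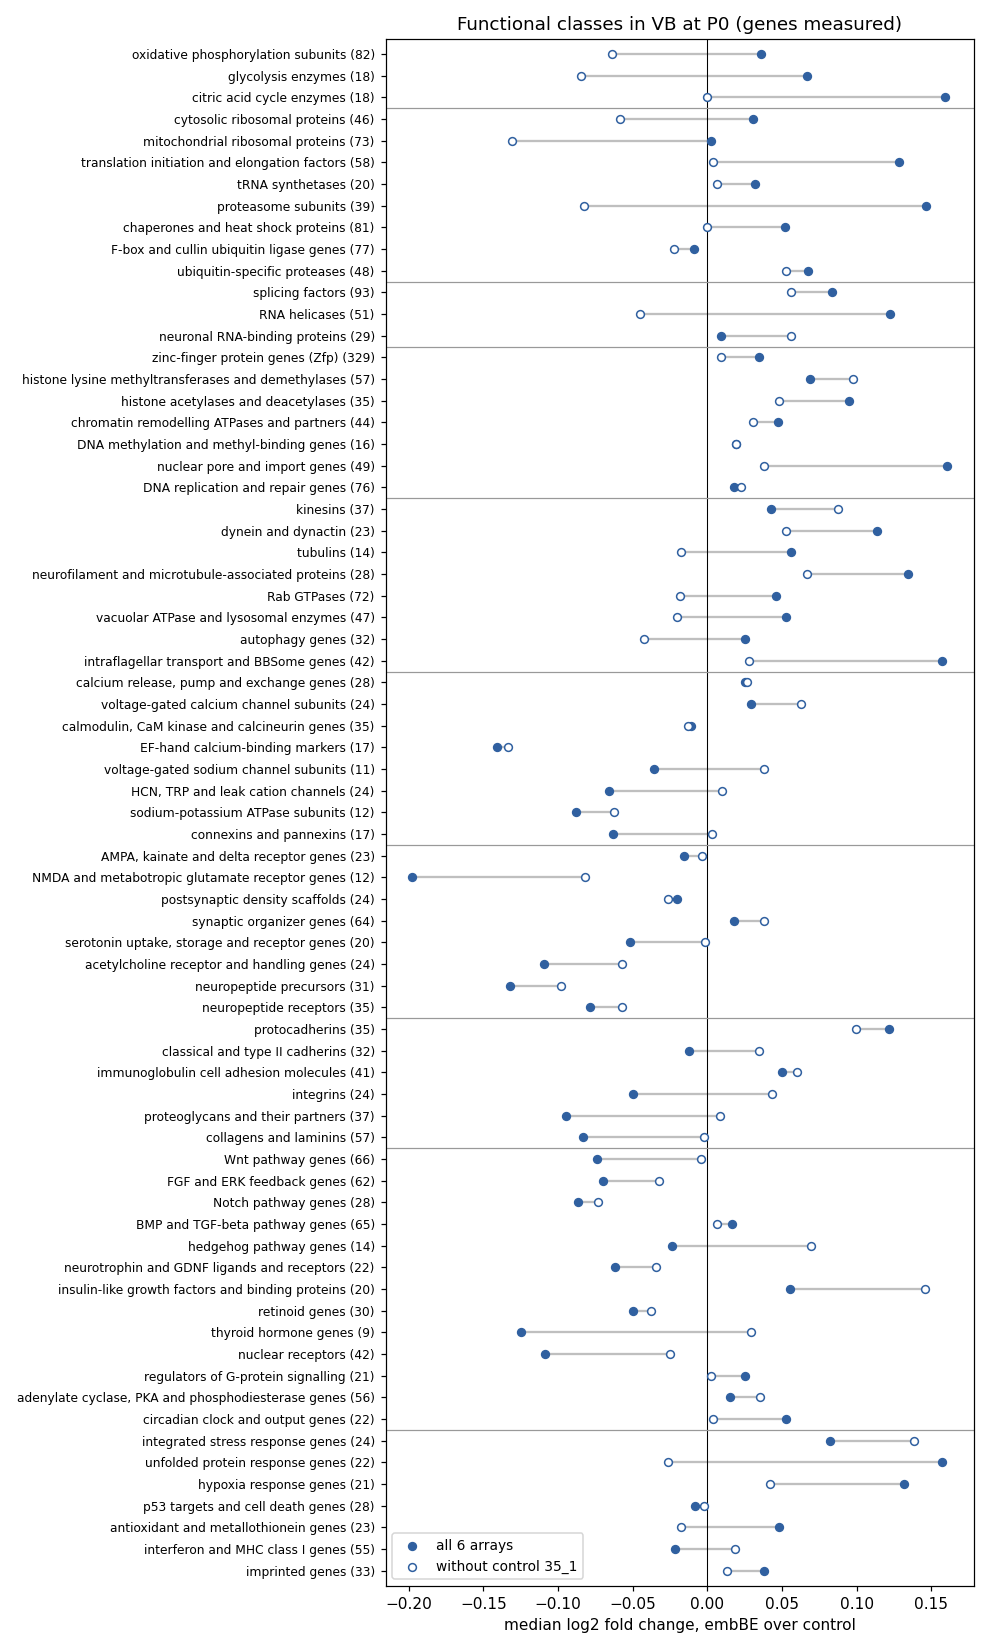
Median log2 fold change of embBE over control in VB at P0 (horizontal axis) for the functional classes reported here, with the number of measured genes in brackets. Filled circles use all 6 arrays, open circles leave out control 35_1, and horizontal lines divide blocks of related classes. Proteasome subunits move from 0.15 to −0.08 when 35_1 is left out, and EF-hand markers stay at −0.14 and −0.13.

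Several classes that every cell uses moved when control 35_1 was left out, and others, such as splicing factors (0.08 and 0.06 without 35_1), moved little. Proteasome subunits, which degrade tagged proteins, had a median of 0.15 with 25 of 39 above 0, and of −0.08 with 8 of 39 above 0 without 35_1. On 35_1 the class lay at −0.52, and on the other 5 arrays between 0.01 and 0.13. In 26 of the 39 subunits 35_1 was the lowest array. Citric acid cycle enzymes moved from 0.16 to −0.00059 without 35_1, nuclear pore and import genes from 0.16 to 0.04, RNA helicases from 0.12 to −0.04 and unfolded protein response genes from 0.16 to −0.03. Intraflagellar transport and BBSome genes, which build cilia, moved from 0.16 to 0.03. Their called members Ttc30b (1.01, SE 0.40) and Ttc30a1 (0.64, SE 0.24) were 0.41 and 0.45 without 35_1 and not called. Ttc30b had 5.40 on 35_1 and 7.03 to 7.68 on the other 5 arrays.

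Mitochondrial genes depended on both outlying controls. Mitochondrial ribosomal proteins had a median of 0.0022 with 37 of 73 above 0, and of −0.13 with 6 of 73 above 0 without 35_1. In 54 of the 73 genes 35_1 was the lowest array and in 50 control 39_5 was the highest. Without 39_5 the median was 0.13. Oxidative phosphorylation subunits behaved likewise, with 47 of 82 above 0 (median 0.04), 26 of 82 without 35_1 (−0.06), and a median of 0.11 without 39_5. Their brightest members, Uqcrb and Cox6a1, had differences of −0.03 and 0.07. Cytosolic ribosomal proteins had 28 of 46 above 0, and 10 of 46 without 35_1. No gene of these 3 classes was called in either fit.

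On the scale of whole classes, 35_1 was the lowest of the 6 arrays in 26 of 72 classes and the highest in 33. Of the 72 medians 23 changed sign without it. With all arrays 17 medians exceeded 0.1 in size, and without 35_1 it was 4. Those 4 were EF-hand markers and mitochondrial ribosomal proteins, which were lower, and integrated stress response (0.14) and insulin-like growth factor genes (0.15), which were higher. In the stress response class Psph, an enzyme of serine synthesis, was called with all arrays (0.67) and not without 35_1 (0.41). The median of that class was −0.014 without control 35_2, where the class lay at −0.23. In the insulin-like growth factor class 0 of 20 genes were called, and the median was −0.0063 without 39_5. Of the 72 classes 48 held no called gene in either fit. With 0.555% of all genes called higher and 0.17% lower, a small class would often hold none.

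**Figure D4:**
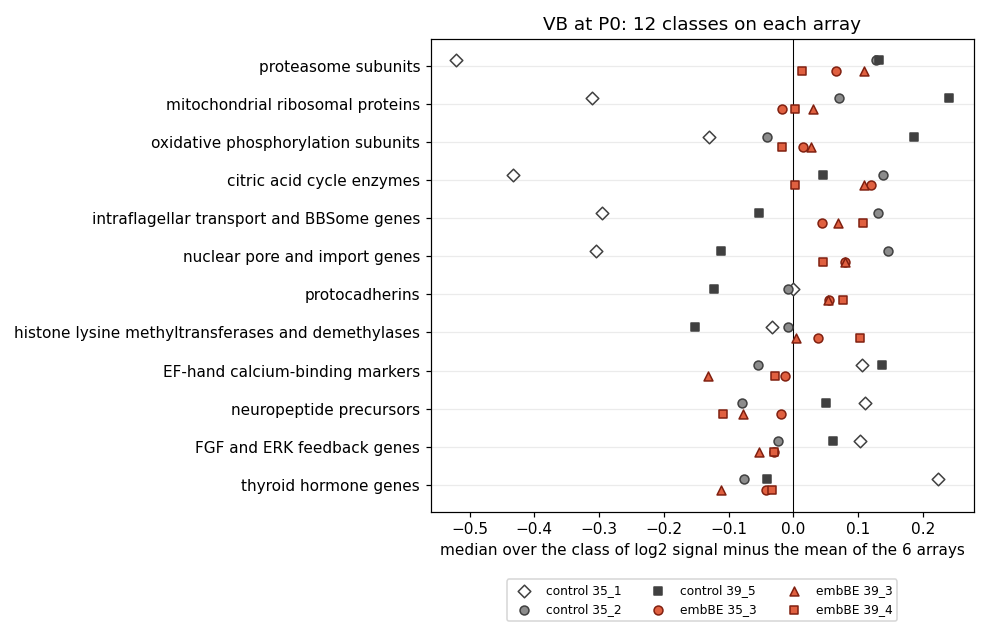
Median over the members of 12 classes of the log2 signal minus the mean of the 6 VB arrays at P0 (horizontal axis), for each array. Grey and white symbols are controls and red symbols embBE arrays. Control 35_1 (open diamond) lies at −0.52 in proteasome subunits and control 39_5 (dark square) at 0.24 in mitochondrial ribosomal proteins.

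Histone methylation enzymes set and remove marks on chromatin. Histone lysine methyltransferases and demethylases had a median of 0.07 with 38 of 57 above 0, and of 0.10 with 44 of 57 above 0 without 35_1. The array with the lowest signal of the class was 39_5 (−0.15), and the median was 0.05 without it. The called member, Kmt5b (0.62, SE 0.27), was 0.27 without 35_1 and 0.14 under the mean of its 5 probe sets. Among 44 chromatin remodelling genes 5 separated upward without overlap (4.47% over all genes) and 0 downward (7.55%). Arid1a, a subunit of the BAF complex, was called (0.67, SE 0.23), with 8.87 to 9.74 in controls, 35_2 the highest, and 9.88 on each embBE array. It was 0.50 and not called without 35_1, and 0.52 and not called under the mean of its probe sets. The other 4, named after their values were seen, were Atrx (0.43), Chd2 (0.49), Chd9 (0.41) and Smarcad1 (0.40). Of 35 histone acetylases and deacetylases 0 were called, and the median was 0.09 and 0.05 without 35_1.

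Of 329 measured Zfp genes 2, Zfp871 and Zfp383 (0.82, SE 0.23), were called higher, a share near that of all genes (0.555%). Zfp383 was 0.47 without 35_1 and 0.47 under the mean of its probe sets, under the fold threshold in both. Zfp503 was called lower without 35_1 (−0.64), with 8.05 on 39_5 and 6.72 to 7.12 on the others. The class median was 0.03, with 26 of the 329 genes separated upward (4.47% over all genes) and 24 downward (7.55%). The splicing factor gene Hnrnph1 (0.71, SE 0.32) and the nuclear pore gene Ranbp2 (0.68, SE 0.27) were called with all arrays and neither without 35_1 (0.40 and 0.47) nor under the mean of their probe sets (0.38 and 0.17). Also not called without 35_1 were the neurofilament gene Nefm (0.85, SE 0.39, 0.38 without 35_1), which gave 9.54, 11.30 and 10.62 in controls and 11.29, 11.61 and 11.11 in embBE arrays, and the chaperone gene Dnajc12 (0.62, 0.31 without 35_1). Kinesins, dyneins, tubulins and Rab GTPases held 0 called genes out of 37, 23, 14 and 72.

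Signalling classes held 2 genes called with all arrays. Dbp, a transcription factor gene driven by the circadian clock, gave 7.93, 7.62 and 7.41 in controls 35_1, 35_2 and 39_5 and 6.77, 7.08 and 6.96 in the embBE arrays. The groups did not overlap, and the difference was −0.72 (SE 0.16), −0.58 without 35_1, just under the fold threshold, and −0.84 without 39_5. Its second probe set gave −0.15, and the mean of both, −0.43, was not called. Its paralogues Tef and Hlf had −0.18 and −0.16 and the core clock genes Clock, Per1 and Cry1 had 0.19, 0.04 and 0.15, all named after their values were seen, and the median of 22 clock genes was 0.05. The orphan nuclear receptor gene Nr2f6 fell by 0.70 (SE 0.20), from 10.72, 9.90 and 10.61 to 9.63, 9.82 and 9.67, and by 0.54 without 35_1. Its second probe set gave 0.05, and the mean of both was −0.33 and not called. Nuclear receptors as a class had a median of −0.11, and of −0.03 without 35_1. The retinoid-binding protein gene Crabp1 was called lower without 35_1 (−0.82) and not with it (−0.53).

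FGF and ERK feedback genes had a median of −0.07 (−0.03 without 35_1), and 11 of 62 separated downward without overlap (7.55% over all genes), 0 of them called. Dusp7 (−0.60), Dusp5 (−0.43) and Dusp6 (0.43) belonged to the phosphatases that switch off ERK and were named after their values were seen. Of 66 Wnt pathway genes 9 separated downward (7.55% over all genes) and 2 upward (4.47% over all genes). Wnt4 lay at −0.58 (SE 0.29) and Lef1 at 0.44 (SE 0.20), both chosen after their values were seen. Thyroid hormone genes lay below 0 in 9 of 9, with a median of −0.13, and 6 of 9 lay above 0 without 35_1. Notch, hedgehog, BMP and neurotrophin classes had medians of −0.09, −0.02, 0.02 and −0.06, with 0 called.

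Markers of glia, vessels, meninges, blood and cortex gave few calls. Among 25 measured astrocyte and radial glia markers Bcan was called, and the list's median was 0.06, and −0.11 without 35_1. Aqp4, the water channel of astrocyte endfeet, was highest on 39_5 (8.35, against 6.41 to 7.14). Oligodendrocyte markers had a median of −0.08, microglia and complement markers −0.05, endothelial and mural markers 0.05, meningeal markers −0.02 and cortical markers −0.09, with 0 called. Red blood cell and choroid plexus markers had −0.11 and −0.10, and −0.02 and −0.01 without 35_1.

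Called genes also were compared with all genes in measures that the threshold did not use. Genes called higher spanned a median of 56.01 kb of the genome (RefSeq, GRCm38.p6) and genes called lower 22.0 kb, where all genes spanned 20.3 kb. For the 13 genes called higher without 35_1 the median was 404 kb, and for the 18 placed genes called lower it was 11.6 kb. The median log2 signal was 8.61 for genes called higher and 8.997 for genes called lower, and 7.25 for all genes. The genes called lower without 35_1 were dimmer, with a median of 6.34.

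The same 20 genes were looked up in VB at P4 and in the dLGN, the visual relay that lost its retinal input, at P0. At P4, on 6 other VB arrays, 12 of the 20 had the sign they had at P0 and 0 met the threshold (0.159% of all genes did). Kcnab1 had 0.39 at P4, Zfp871 0.35 and Syt17 −0.54, while Fat3 and Tenm1 had −0.04 and −0.03. In the dLGN at P0 (4 embBE and 2 control arrays), 12 of the 20 had the sign of the VB and 0 met the threshold (0.445% of all genes did). Fat3 had −0.12 there and Tenm1 −0.04. Xist, also among the 20, had −1.34 in the VB at P4 and 2.12 in the dLGN at P0. Lhx1 and Syt17 had −0.86 (limma p 0.065) and −0.70 (limma p 0.057) in the dLGN. The dLGN controls carry the label numbers 35_1 and 39_5, and in the VB both decreases were smaller without 39_5 (−0.30 and −0.47).

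The difference of the embBE effect between P4 and P0, tested in the same fit, met the threshold in 63 genes (0.346%) and in 7 of the 20, with adjusted p of 1 for each. The 7 include the X-linked genes Xist (−3.95), Eif2s3x (−0.78) and Tenm1 (−0.64). The part of the sex pattern of the P0 arrays in these differences was not tested. The difference between VB and dLGN at P0 met the threshold in 462 genes (2.54%) and in 6 of the 20, with a lowest adjusted p of 0.551. Without the 35_1 arrays these differences met the threshold in 113 and 166 genes. As the 20 were chosen by their P0 values in the VB, a difference in these counts is partly fixed by the choice. Pcdh7, called in the VB at P0, had −0.73 in the dLGN and 0.38 in the VB at P4, and Nrxn3 had −0.50 and 0.07.

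**Figure D5:**
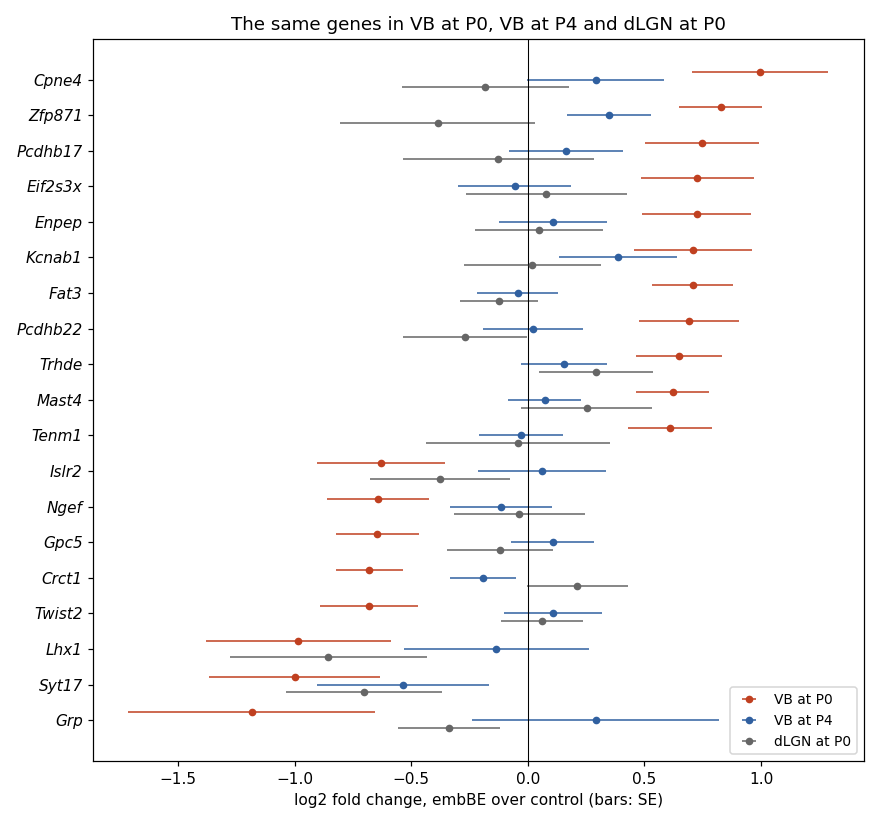
Log2 fold change of embBE over control with its SE (horizontal axis) in VB at P0 (red), VB at P4 (blue) and dLGN at P0 (grey) for the genes called in VB at P0 with all arrays and without control 35_1, Xist left out. Fat3 and Tenm1 lie at 0.71 and 0.61 in VB at P0 and near 0 in the other comparisons, and Lhx1 and Syt17 lie below 0 in all 3.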

How the data were processed

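The authors deposited log2 signals, normalized with RMA (its version is not given in the sources used here), of 45101 probe sets on 24 arrays. They were used as deposited, without a filter on weak signals. Of these probe sets 34958 carried 1 gene symbol, 932 several and 9211 no listed gene. Each of 18194 genes was represented by its brightest probe set, ranked by the mean of the 24 arrays. The number of arrays limits the precision.

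Groups were taken from the labels. A limma model (version 3.58.1, R 4.3.3) of group means with eBayes covered the 12 VB arrays, and p-values were adjusted by Benjamini-Hochberg over all genes. Differences between ages were a contrast in that model. Differences between nuclei were a contrast over 24 arrays in which arrays sharing both label numbers formed a random block (consensus correlation −0.0196). The comparison, class members and lists were chosen with earlier results of these data known, so counts and medians of classes are descriptions without a test. Named are genes called with all arrays and without control 35_1 (unnamed clones passed over), up to 4 called members and the 2 brightest of a class, up to 2 members called without 35_1, markers, and sex-linked genes. Promoters and positions come from RefSeq (GRCm38.p6). The model was tested on simulated data. Alternatives covered normalization, probe sets, fits, weights and each array left out. The fit without both 35_1 and 39_5 was chosen after seeing the data. A class counted among the 72 is left out of the text and the plot of class medians, and other classes with no result in the text appear in that plot alone.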

Additional observations from a re-analysis of the deposited data

How the results depend on the processing

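The count of called genes depended on the array left out and on the probe set, and less on normalization. With each array left out in turn, 32 to 1058 genes were called, 13 to 850 higher and 19 to 208 lower, the lowest total without control 35_1 and the highest without control 35_2. Without both control arrays 35_1 and 39_5 the counts were 22, 15 and 7. With all 24 arrays in the fit 84 genes were called, 49 of them higher. The methods' t-test called 28 (20 higher, 8 lower), the mean of the probe sets 50 (38 and 12), and every probe set counted 264 (218 and 46). Genes called lower numbered 50 under cyclic loess and 57 under quantile normalization. Array weights gave 271 calls, 147 higher and 124 lower, and this setting alone gave genes with an adjusted p under 0.05 (422). It weighed control 35_1 at 0.199, 35_2 at 0.461 and 39_5 at 2.26. The other settings, the methods' t-test included, gave 0 such genes, and the fit as reported had 1219 with an unadjusted p under 0.05.

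With the first label number as a replicate block 158 genes were called, 95 higher and 63 lower, and 92 of them were among the 132. Arrays of the 2 groups that share a first number deviated together with correlations of 0.02 to 0.09 over genes, and the other pairs with −0.24 to 0.20. With so few arrays per group, these correlations cannot decide whether the numbers pair the arrays. Without control 35_1 the P4 against P0 difference was called in 113 genes in place of 63, and the VB against dLGN difference, without the 35_1 arrays of both nuclei, in 166 in place of 462. Gad1 and Hs6st2 changed sign without control 39_5. With each array left out Gad1 ranged from −2.78 to 0.043 and Hs6st2 from −0.65 to 0.037. Mast4 changed sign under the mean of the probe sets (−0.023). Against 35_2 as the lone control Cartpt (0.023), Dlx1 (0.010), Gad1 (0.28), Sst (0.14), Hnrnph1 (−0.063) and Kmt5b (−0.0040) changed sign. The causes were not tested. The values hold no detection calls, so changes of dim genes such as Enpep and Cartpt could not be set against background.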
